A study of Mus musculus with 6 samples.

Results

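The genes described here are those of Wnt signalling at the cell surface together with a few of their nuclear partners: 53 probes for 52 genes, out of 23473 probes on the array, or of 19321 named genes. They were chosen by gene symbol as Wnt ligands, Frizzled receptors, the Lrp5 and Lrp6 co-receptors, Ror and Ryk receptors, Sfrp, Dkk, Frzb and Wif1 antagonists, R-spondins and Lgr receptors, Ctnnb1, Lef1 and the feedback genes Axin2 and Nkd1. A probe was kept where the authors' deposited table held a value on at least 3 of the 6 arrays. The names matched 57 probes. Just inside the limit were Wnt16 with 3 values and Wnt1 with 4; just outside were Dkk4 and Wnt8a with 2 values each, Tcf7l2 with 1 and a second Lgr5 probe with 0.

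The study measured RNA of astrocytes grown from the cortex of newborn (P0) C57BL/6J mice that carried Chd7 flox/flox, alleles in which the Cre recombinase deletes the flanked part of Chd7. Chd7 encodes an ATP-dependent chromatin remodeller. The Chd7 KD group had 3 samples infected with a Cre lentivirus, and the control group had 3 samples infected with a control lentivirus. All 6 cultures carried the floxed alleles, grew with FGF2, EGF, B-27 and 10% serum, and were harvested 3 days after infection. Cre was present only in the Chd7 KD cultures, so the recombinase's own effects and those of losing Chd7 cannot be told apart. The sources used here do not give the promoter that drives Cre. It is also not stated that the 3 samples of a group were separate cultures or mice; p-values therefore describe the spread among these samples, which may be technical.

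Wnt proteins are secreted lipid-modified ligands that bind Frizzled receptors. With Lrp5 or Lrp6 they stabilise beta-catenin, which then acts with TCF and LEF factors on target genes such as Axin2; with Ror or Ryk receptors they signal without beta-catenin. Sfrp proteins, Frzb and Wif1 bind the ligands, and some Dkk proteins, Dkk1 among them, block the co-receptors. R-spondins acting through Lgr receptors raise the number of Wnt receptors at the membrane. In the brain, Wnt ligands of astrocytes and progenitors are known to act on blood vessels, synapses and neural stem cells.

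Chd7 itself read 8, 7 and 8 units in Chd7 KD cultures, against 42, 89 and 46 in control cultures, in the authors' deposited intensities for its brighter probe, M300016343. Its log2 difference was -1.13 (SE 0.16; limma adjusted p = 0.401 over all probes). This size depended on the background handling: it was -0.52 with the local background, -2.71 with plain subtraction and -2.86 in the authors' values. The dimmer Chd7 probe, M400002483, differed by -0.11 (SE 0.06). All 16 astrocyte marker genes had a probe, and all 17 of those probes lay above background on all 6 arrays, among them Gfap, at a log2 level of 7.94 ± 0.20 in Chd7 KD and 7.61 ± 0.27 in control cultures (SD, n = 3 each). Above background means brighter than the mean of the empty spots by 2 SD. Of all probes, 83.7 to 87.6% passed on Chd7 KD arrays and 87.6 to 90.7% on control arrays. Summed over the astrocyte list, the authors' intensities were 7038 to 8922 in Chd7 KD and 5378 to 9614 in control cultures. Of the 17 probes, 15 were higher in Chd7 KD cultures (88.2%, against 49.7% of all probes), 5 of them at an unadjusted p under 0.05 in limma (29.4%, against 2.75%). Microglia markers summed to 313 to 419 in Chd7 KD and 432 to 500 in control cultures, without overlap; 12 of 15 probes were above background everywhere and Itgam nowhere. These sums are in the authors' values, whose log2 median over all probes differed by -0.17. In the limma fit used here, 1 of 14 tested microglia probes was higher and 5 were lower at an unadjusted p under 0.05. That is 42.9% together, against 5.59% of all probes. The higher one, Cd68, differed by 0.48, and the 5 lower ones by -0.26 (Tyrobp) to -0.71 (C1qb). For neuron markers, 7 of 11 tested probes had a higher mean and 4 a lower one. At an unadjusted limma p under 0.05, 3 were higher and 1 was lower (36.4% together, against 5.59% of all probes). In the authors' values, oligodendrocyte markers summed to 1694 to 2521 in Chd7 KD and 1828 to 3355 in control cultures. Ependymal and choroid markers summed to 301 to 648 in Chd7 KD and 254 to 595 in control cultures. Of 11 and 5 tested probes in these lists, 0 had an unadjusted limma p under 0.05 (5.59% of all probes). Fewer cells of a type and less RNA per cell cannot be told apart in these bulk samples, and the part of other cells in the values given next was not tested.

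No Wnt member passed the test between the groups. Of the 53 probes, 51 were above background on at least 3 arrays and were tested with limma over 20747 probes. Of these 51, 0 had an adjusted p under 0.05, as for all probes (0.0% called), and 1 had an unadjusted p under 0.05, the ligand gene Wnt4. That is 1.96% of the members, against 5.59% of all probes tested, or 1.96% higher against 2.75% and 0 lower against 2.83%. Wnt1 and Wnt16, each above background on at most 2 arrays, were not tested. Over the 51 members, log2 differences ran from -0.12 (Rspo2) to 0.36 (Dkk3), and 4 of 51 reached 0.2 in size (7.84%, against 9.5% of all probes). Those 4 were Wnt4, Wnt7a, Dkk3 and Sfrp1, and each was the higher in Chd7 KD cultures. This scale has an offset of 50 units that compresses the differences of dim probes, so the sizes depend partly on brightness. With plain subtraction Wnt4 differed by 1.05, Lgr4 by 1.02 and Rspo2 by -0.45.

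More members lay above 0 than below it. There were 34 of 51 with a higher mean in Chd7 KD cultures (66.7%, against 49.7% of all probes), and the median difference was 0.02, against -0.001 over all probes. In the authors' values, where the median of all probes was -0.17, 24 of 53 were higher, and 13 of the 51 had the other sign. In the 3 same-numbered pairs of arrays the members' median was 0.04, 0.03 and 0.03. These are descriptions of a list chosen with earlier results known, with no test of the list. The groups did not overlap for 5 members, Wnt4, Wnt7b, Wnt9a, Fzd1 and Lgr4 (9.80%, against 10.5% of all probes), and all 5 were higher in Chd7 KD cultures. Over all probes, 5.23% lay apart on the higher side and 5.27% on the lower side. By role, the higher side held 11 of 15 tested ligand probes, 12 of 16 receptor probes, 5 of 9 antagonist probes, 2 of 7 R-spondin and Lgr probes, and all 4 of Axin2, Ctnnb1, Lef1 and Nkd1.

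**Figure D1:**
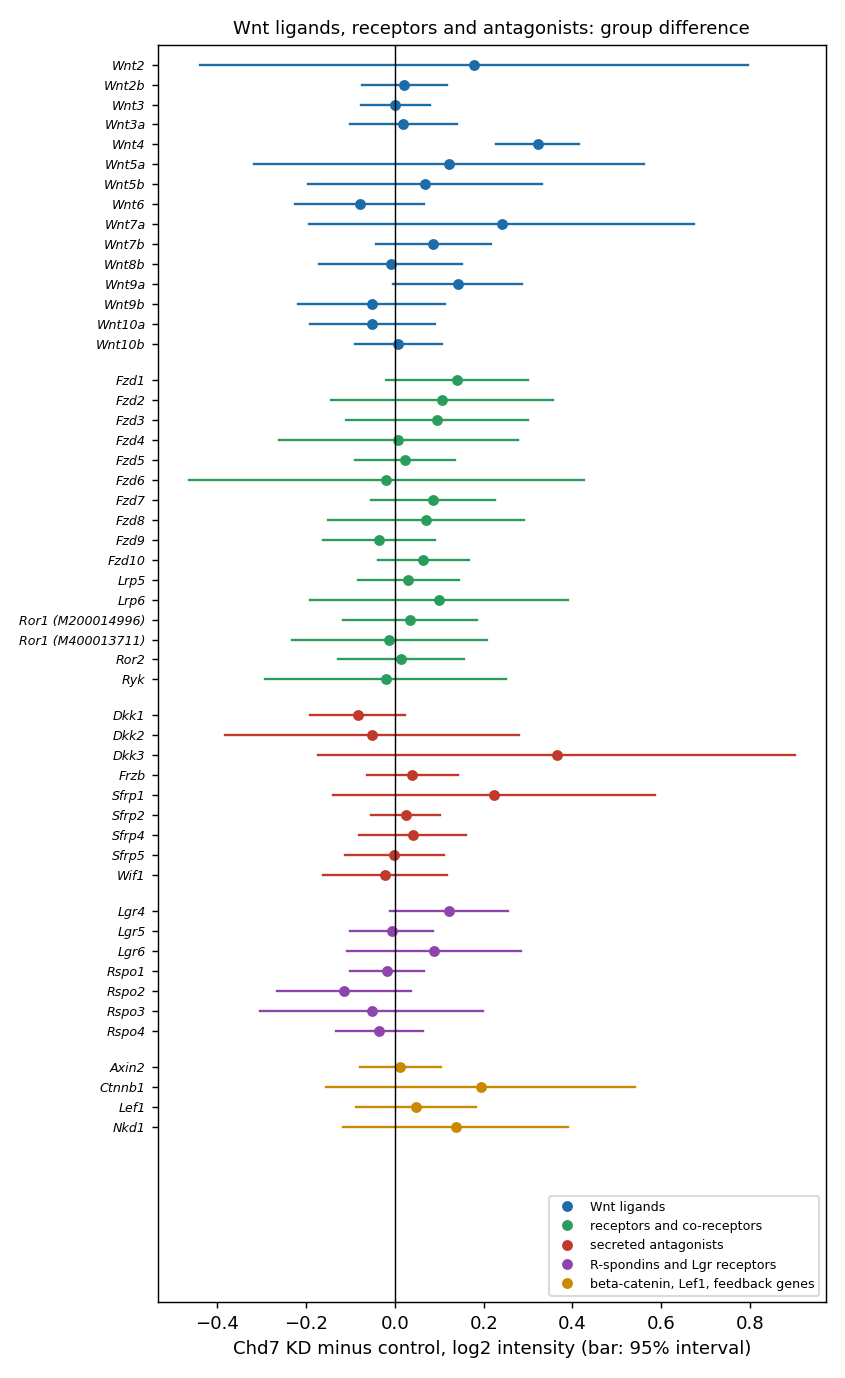
Difference in log2 intensity, Chd7 KD minus control, for the 51 tested probes, grouped by role. The 95% intervals are from limma without the replicate block and are not adjusted for the number of probes. Wnt4 has an interval of 0.23 to 0.42, while the other 50 intervals include 0.

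**Figure D2:**
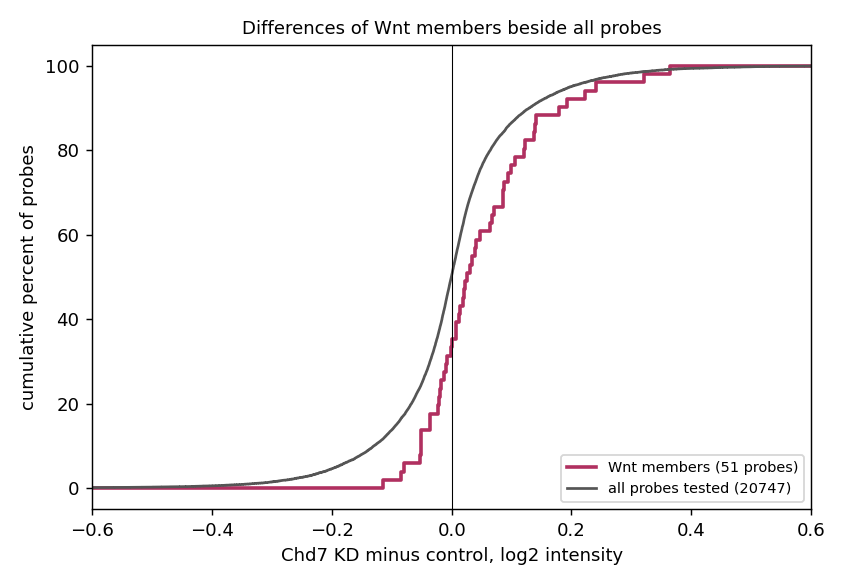
Cumulative percent of probes by log2 difference, Chd7 KD minus control, for the 51 Wnt probes and all 20747 probes tested; the horizontal axis is cut at 0.6 in size, and a few of all probes lie beyond it. The Wnt curve lies to the right of the other through most of the range, with a median of 0.02 against -0.001.

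Among the ligands, Wnt4, whose product guides kidney and reproductive tract development, showed the clearest separation. It read 6.31, 6.34 and 6.40 log2 units in Chd7 KD cultures, against 6.01, 6.03 and 6.03 in control cultures. Every Chd7 KD array lay above every control array, by a gap several times the spread within either group. The difference was 0.32 (SE 0.04, 95% interval 0.23 to 0.42; 1.25-fold), with an unadjusted p of 0.000197 and a limma adjusted p of 0.401. In the authors' deposited intensities the same probe stood at 17, 17 and 20 units in Chd7 KD cultures and at 9, 10 and 10 in control cultures, and the log2 difference was 0.89 (SE 0.11). The smaller value on the first scale comes with its offset of 50 units, which compresses the differences of dim probes. The probe is dim on either scale, since each column of the authors' table has a median of 25.

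The promoter of Wnt4, the member of smallest unadjusted p, is shown beside those of Fzd1 and Dkk1. Fzd1 and Dkk1 had the smallest p among the receptors and among the antagonists. None of these genes passed the test between the groups (limma adjusted p = 0.401 for Wnt4). Each window runs from 250 bases before to 50 bases after a start site in RefSeq's GRCm38.p6 annotation: chr4:137277385-137277684 on the plus strand for Wnt4, chr5:4758167-4758466 on the minus strand for Fzd1 and chr19:30549447-30549746 on the minus strand for Dkk1. Capitals mark the cores CTTTGA and CTTTGT of the motif bound by TCF and LEF factors, searched on both strands.
Wnt4: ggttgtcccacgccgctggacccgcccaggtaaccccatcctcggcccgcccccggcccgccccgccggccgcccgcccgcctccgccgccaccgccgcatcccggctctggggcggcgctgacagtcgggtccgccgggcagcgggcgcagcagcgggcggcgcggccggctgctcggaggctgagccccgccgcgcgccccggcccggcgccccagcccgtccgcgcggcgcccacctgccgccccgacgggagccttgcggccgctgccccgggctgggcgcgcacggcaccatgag
Fzd1: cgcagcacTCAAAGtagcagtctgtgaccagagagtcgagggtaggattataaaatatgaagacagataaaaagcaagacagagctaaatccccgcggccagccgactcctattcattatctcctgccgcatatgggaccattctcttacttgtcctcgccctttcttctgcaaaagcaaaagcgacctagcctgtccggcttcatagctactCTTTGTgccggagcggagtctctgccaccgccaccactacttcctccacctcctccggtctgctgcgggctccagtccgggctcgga
Dkk1: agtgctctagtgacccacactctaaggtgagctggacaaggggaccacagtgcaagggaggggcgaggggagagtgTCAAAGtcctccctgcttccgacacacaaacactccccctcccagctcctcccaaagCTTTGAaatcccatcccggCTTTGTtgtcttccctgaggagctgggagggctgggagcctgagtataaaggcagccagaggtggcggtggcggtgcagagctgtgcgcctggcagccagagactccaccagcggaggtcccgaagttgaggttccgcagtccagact
The Wnt4 window held neither core, Fzd1 held 1 of each and Dkk1 held 2 of CTTTGA and 1 of CTTTGT. A match is a description of letters, not a binding site. Windows were found for 37 of the 52 genes, 43 windows in all, and 11 of these held either core (25.6%, against 31.2% of all 32851 windows in the table). Member windows were rich in G and C, with a median of 67.3% against 52.7% over all windows, and had a median of 25 CG pairs against 7. The GC box CCGCCC, on either strand, was present in 32 of the 43 (74.4%), against 35.7% of all windows. Wnt4 was among the richest at 84.3% G and C with 51 CG pairs, whereas Fzd1 had 54.0% and 16 pairs, and Dkk1 60.7% and 9 pairs.

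Wnt9a, a ligand of joint and skeletal development, came next. Its levels were 6.34, 6.39 and 6.20 log2 units in Chd7 KD cultures, against 6.17, 6.19 and 6.14 in control cultures. The groups were separated by less than the spread among the Chd7 KD arrays, and the difference of 0.14 (SE 0.06) did not pass (limma adjusted p = 0.916). Its neighbour on the chromosome, Wnt3a, with no protein-coding gene between them, differed by 0.02 (SE 0.05). Of the other neighbouring pairs, Wnt10b differed by 0.008 (SE 0.04) beside Wnt1, which was not tested. Wnt6 differed by -0.08 (SE 0.06) and Wnt10a by -0.05 (SE 0.06), and Wnt9b by -0.05 (SE 0.07) and Wnt3 by 0.001 (SE 0.03). None of the 7 tested genes in these pairs differed by more than 0.2 in size.

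Wnt7a, a ligand that acts on the endothelium of brain vessels, varied more between replicate numbers than between groups. It read 6.41, 6.91 and 6.87 log2 units in Chd7 KD cultures, against 6.26, 6.69 and 6.52 in control cultures. Replicate 1 was the lowest array of both groups, and the groups overlapped. Within same-numbered pairs Chd7 KD was higher each time, by 0.15, 0.22 and 0.35. The difference was 0.24 (SE 0.17; limma adjusted p = 0.999), with 0.40 without Chd7 KD replicate 1 and 0.13 without control replicate 1. Its close relative Wnt7b did not overlap between groups but differed by only 0.09 (SE 0.05), at 5.99 ± 0.01 in Chd7 KD and 5.90 ± 0.09 in control cultures (SD, n = 3 each). The other 11 tested ligands differed by -0.08 (Wnt6) to 0.18 (Wnt2).

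Frizzled and related receptors had small differences between the groups on this log2 scale, which compresses dim probes. Some intervals were wide, such as -0.46 to 0.43 for Fzd6. Fzd1 read 6.55, 6.69 and 6.48 log2 units in Chd7 KD cultures, against 6.47, 6.44 and 6.38 in control cultures. The groups touched without overlapping, and the difference was 0.14 (SE 0.06; limma adjusted p = 0.934). Fzd10 read 6.06, 6.13 and 6.03 in Chd7 KD cultures, against 6.01, 6.03 and 5.97 in control cultures, and the highest control array lay above the lowest Chd7 KD array. Its difference was 0.06 (SE 0.04). Differences of the 10 Frizzled probes ran from -0.04 (Fzd9) to Fzd1's 0.14, and the co-receptors Lrp5 and Lrp6 stood at 0.03 (SE 0.05) and 0.10 (SE 0.12).

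No receptor of the branch without beta-catenin passed the test either, and some of their intervals were wide, such as -0.23 to 0.21 for Ror1 probe M400013711. Ror1, a receptor tyrosine kinase that binds Wnt5a, had 2 probes of opposite sign. Probe M200014996 read 6.08, 6.02 and 5.89 in Chd7 KD cultures, against 5.91, 6.01 and 5.96 in control cultures, a difference of 0.03 (SE 0.06). Probe M400013711 read 6.68, 6.48 and 6.48 in Chd7 KD cultures, against 6.69, 6.55 and 6.44 in control cultures, a difference of -0.01 (SE 0.09). Both overlapped fully, so neither sign is larger than the replicate error. Ror2 differed by 0.01 (SE 0.06). Ryk, a receptor with a Wnt-binding WIF domain, differed by -0.02 (SE 0.11), so a 95% interval of -0.29 to 0.25 bounds its change.

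**Figure D3:**
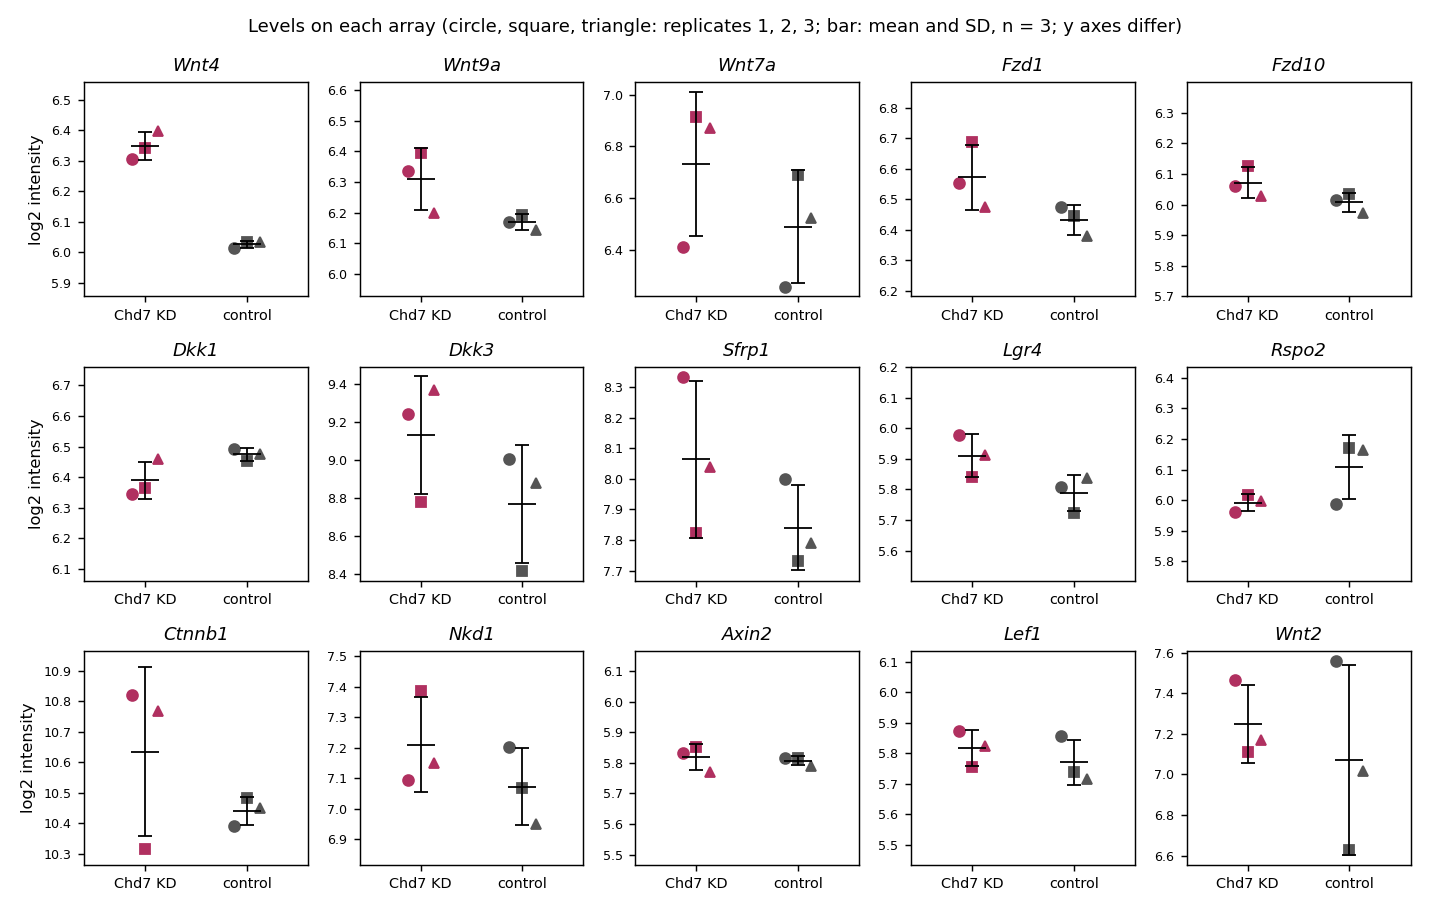
Log2 intensity on each array for 15 members, Chd7 KD left and control right, with the mean and SD of 3 arrays as bars; the vertical axes differ in position and range. Wnt4 shows the clearest gap, while Ctnnb1, Dkk3, Sfrp1, Wnt2 and Wnt7a spread within a group by as much as between groups.

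The list of secreted antagonists, chosen by gene symbol, held the largest member difference, with 5 of 9 probes higher in Chd7 KD cultures and 4 lower. Dkk3, a divergent member of the Dickkopf family, read 9.24, 8.78 and 9.37 log2 units in Chd7 KD cultures, against 9.003, 8.42 and 8.88 in control cultures. Replicate 2 was the lowest in both groups, and the groups overlapped. The difference was 0.36 (SE 0.22, 95% interval -0.17 to 0.90; limma adjusted p = 0.999), and within same-numbered pairs it was 0.24, 0.36 and 0.49. It was 0.19 without control replicate 2 and 0.54 without Chd7 KD replicate 2. Sfrp1, a secreted Frizzled-related protein, read 8.33, 7.82 and 8.04 in Chd7 KD cultures, against 7.998, 7.73 and 7.79 in control cultures. It too overlapped, with a difference of 0.22 (SE 0.15) and pair differences of 0.33, 0.09 and 0.25. Without Chd7 KD replicate 1 it was 0.09, and without Chd7 KD replicate 2 it was 0.34. Dkk1, which binds Lrp5 and Lrp6 and is itself a target of beta-catenin, lay lower, at 6.34, 6.37 and 6.46 in Chd7 KD cultures, against 6.49, 6.45 and 6.48 in control cultures. The top Chd7 KD array lay within the control range, and the difference was -0.08 (SE 0.04; limma adjusted p = 0.973). The other 6 antagonists stood between -0.05 (Dkk2) and 0.04 (Sfrp4).

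On the log2 scale used here, whose offset of 50 units compresses dim probes, R-spondins and their receptors had small differences of either sign. Lgr4, a receptor for R-spondins, read 5.98, 5.840 and 5.91 log2 units in Chd7 KD cultures, against 5.81, 5.72 and 5.836 in control cultures. The groups just failed to overlap, and the difference was 0.12 (SE 0.05; limma adjusted p = 0.934). In the authors' deposited intensities Lgr4 was only 8, 4 and 6 units in Chd7 KD cultures and 4, 2 and 4 in control cultures, so 1 unit is a large part of the value. Rspo2, a secreted R-spondin, read 5.96, 6.02 and 6.00 in Chd7 KD cultures, against 5.99, 6.17 and 6.17 in control cultures; control replicate 1 lay among the Chd7 KD arrays. Its difference was -0.12 (SE 0.06, limma adjusted p = 0.986), and Rspo1, Rspo3 and Rspo4 were also below 0, at -0.02 to -0.05. Where the empty spots' mean was simply subtracted, Lgr4 differed by 1.02 (SE 0.39) and Rspo2 by -0.45 (SE 0.22). The authors' values gave 0.86 (SE 0.39) for Lgr4 and -0.57 (SE 0.24) for Rspo2.

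None of the 4 genes downstream of the receptors passed the test. Ctnnb1, which encodes beta-catenin, read 10.82, 10.32 and 10.77 log2 units in Chd7 KD cultures, against 10.39, 10.48 and 10.45 in control cultures. Chd7 KD replicate 2 lay below all control arrays and the other 2 above them, and the difference was 0.19 (SE 0.14; limma adjusted p = 0.999). Without Chd7 KD replicate 2 it was 0.35 (SE 0.05; limma adjusted p = 0.747), with an unadjusted p under 0.05, and without Chd7 KD replicate 1 it was 0.10. Nkd1, a feedback inhibitor that binds Dishevelled, read 7.09, 7.39 and 7.15 in Chd7 KD cultures, against 7.20, 7.07 and 6.95 in control cultures, with a difference of 0.14 (SE 0.10). The groups overlapped for both genes.

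Axin2 and Lef1 are commonly read as outputs of beta-catenin signalling. Axin2, a scaffold of the complex that degrades beta-catenin, read 5.83, 5.85 and 5.77 in Chd7 KD cultures, against 5.82, 5.81 and 5.79 in control cultures, a difference of 0.01 (SE 0.04, 95% interval -0.08 to 0.10). Lef1, a transcription factor that partners beta-catenin, read 5.87, 5.76 and 5.82 in Chd7 KD cultures, against 5.86, 5.74 and 5.72 in control cultures, a difference of 0.05 (SE 0.05). Both probes were near background, at 2 to 5 units in the authors' intensities. A change of either transcript may therefore be compressed on the log2 scale used here.

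Low signal was general among the members. The mean of the authors' intensities lay under 10 units for 24 of the 53 probes and under the column median of 25 for 36. The share of all probes under these limits was not counted, though a column's median lies at the middle of its values. It reached 100 for 5 probes, namely Ctnnb1, Dkk3, Fzd3, Ryk and Sfrp1. On single arrays, 49 to 51 of the 53 probes were above background in Chd7 KD cultures (92.5 to 96.2%, against 83.7 to 87.6% of all probes). In control cultures 51 to 52 were (96.2 to 98.1%, against 87.6 to 90.7%). Members had been kept only with a deposited value on at least 3 arrays, which favours such counts.

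Spread over replicate numbers was about as frequent among the members as among all probes. For 42 of 51 members the range over the means of the 3 replicate numbers was larger than the size of the group difference (82.4%, against 80.0% of all probes). Deviations from the group means correlated over the 51 members at r of 0.58, 0.54 and 0.51 between same-numbered arrays, a description over genes measured on the same arrays. Wnt2 and Wnt5a, named after their values were seen, show it. Wnt2 read 7.47, 7.11 and 7.17 log2 units in Chd7 KD cultures, against 7.56, 6.63 and 7.02 in control cultures, with replicate 1 the highest and replicate 2 the lowest in both. Wnt5a read 7.01, 6.72 and 7.02 in Chd7 KD cultures, against 7.13, 6.51 and 6.74 in control cultures, with replicate 2 again lowest. Their group differences were 0.18 (SE 0.25) and 0.12 (SE 0.18).

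Some markers of fibroblasts and mural cells also differed between replicate numbers. The genes named here from their list, and Cd68, Tyrobp and C1qb, were picked after their values were seen. In the authors' intensities, the brighter probe (M300004916) of the collagen gene Col3a1, a fibroblast marker, differed most plainly. It read 217, 18 and 112 units in Chd7 KD cultures, against 346, 34 and 163 in control cultures. All 12 genes of that list had a probe, 12 of 13 probes were above background on all arrays, and none was below it on all. Their summed intensity was 15675, 9240 and 12199 in Chd7 KD cultures and 17386, 13019 and 12120 in control cultures. Replicate 1 was the highest in both groups, and the other 2 were in opposite order. Most of these sums came from Acta2 and Tagln. Acta2 was 8336, 5611 and 5806 units in Chd7 KD cultures and 9409, 8635 and 5684 in control cultures. Tagln was 6451, 3454 and 5798 in Chd7 KD cultures and 6821, 4112 and 5790 in control cultures. Col1a1, Col1a2, Col3a1, Dcn, Lum, Rgs5 and Tagln were lowest in replicate 2 in both groups, in the authors' intensities. Acta2, Col6a1, Cspg4, Des and Pdgfrb were not. Lum, highest in replicate 3, was 17, 5 and 35 units in Chd7 KD cultures and 26, 6 and 61 in control cultures. Col6a1 was 95, 45 and 49 in Chd7 KD cultures and 59, 80 and 37 in control cultures. Endothelial markers summed to 154, 69 and 121 in Chd7 KD cultures and 225, 81 and 114 in control cultures, with 5 of 10 probes above background on all arrays and Cldn5 and Tek on none. The part of these cells in the Wnt values was not tested.

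**Figure D4:**
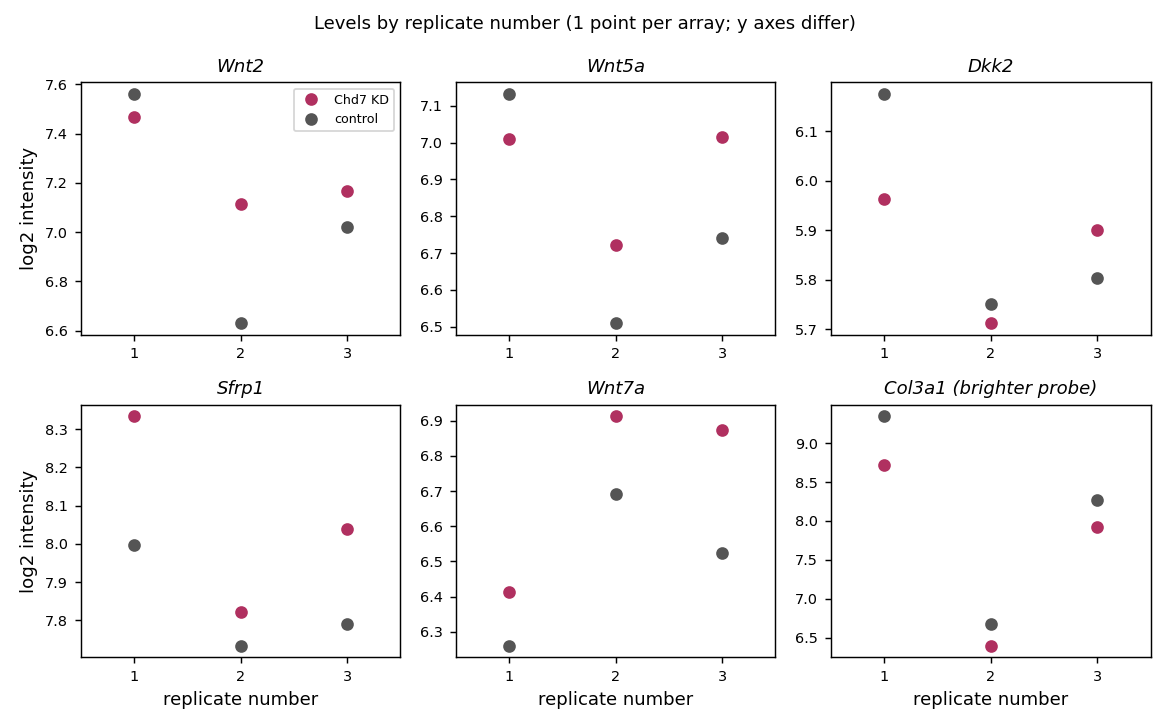
Log2 intensity against replicate number for 5 Wnt members and the brighter Col3a1 probe, 1 point per array, Chd7 KD and control in separate colours; vertical axes differ. Wnt2, Dkk2, Sfrp1 and Col3a1 are highest in replicate 1 in both groups, and Wnt7a is lowest there.

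With the replicate number as a block in the limma fit, 6 members had an unadjusted p under 0.05 in place of 1, all higher in Chd7 KD cultures: Wnt4, Wnt7a, Wnt9a, Dkk3, Sfrp1 and Lgr4. That is 11.8% of the members against 9.31% of all probes, and in the higher direction 11.8% against 4.51%; 0 members were lower, against 4.8% of all probes. Still 0 passed an adjusted p of 0.05, as for all probes (0.0%), and the smallest limma adjusted p of a member was 0.393. In the blocked fit the unadjusted p was 0.00475 for Dkk3 and 0.0121 for Wnt7a. Higher values in all 3 same-numbered pairs were found for 12 of 51 members (23.5%, against 14.6% of all probes) and lower values in all 3 pairs for 3 (5.88%, against 15.4%), namely Wnt6, Dkk1 and Rspo2.

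Other genes of the pathway did not pass either. Lists of 82 further genes held probes for 76 of them, and 79 of 83 probes were tested. Of these, 39 were higher and 40 lower, 0 passed an adjusted p of 0.05 and 2 had an unadjusted p under 0.05 (2.53%, against 5.59% of all probes). Rhou, a gene of the planar polarity list, read 7.87, 7.94 and 7.92 log2 units in Chd7 KD cultures, against 7.75, 7.69 and 7.56 in control cultures. Its groups did not overlap, and the difference was 0.24 (SE 0.06; limma adjusted p = 0.622). Tbl1x, a partner of beta-catenin in the nucleus, read 9.03, 8.82 and 8.94 in Chd7 KD cultures, against 9.47, 9.35 and 9.07 in control cultures. It did not overlap in the other direction, with a difference of -0.37 (SE 0.12; limma adjusted p = 0.762).

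In the list of the beta-catenin destruction complex, 10 of 21 probes were higher and 11 lower, and 0 had an unadjusted p under 0.05 (5.59% of all probes). Gsk3b, which marks beta-catenin for degradation, stood at 7.94 ± 0.03 in Chd7 KD and 8.17 ± 0.18 in control cultures (SD, n = 3 each), a difference of -0.22 (SE 0.09). Csnk1d, a casein kinase, differed by 0.17 (SE 0.07); both signs turned with the local background. Other kinases of the list were near 0, with Csnk1a1 at 0.01, Csnk1e at -0.06 and Csnk1g1 at -0.03. Among modulators outside the cell, Ndp, whose product norrin is a ligand of Fzd4, differed by -0.20 (SE 0.09), and Ptk7, a co-receptor of the polarity branch, by 0.13 (SE 0.08). Of 13 tested probes for common targets of beta-catenin, 6 were higher and 7 lower, with a median of -0.003. Those of smallest p, Myc and Bambi, differed by -0.14 (SE 0.06; 0.33 with the local background) and -0.20 (SE 0.17). The corepressor gene Ctbp2 differed by -0.28 (SE 0.15), and Invs, which acts between the pathway's branches, by -0.17 (SE 0.12) and, in a dimmer probe, -0.06 (SE 0.05).

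The size of the Wnt4 difference depended on how the background was handled. On the log2 scale it was 0.32 with the correction on empty spots and 1.05 where their mean was simply subtracted. The authors' values gave 0.89, and the scanner's local background gave 0.13, with an unadjusted limma p of 0.079. Sfrp1 was higher in Chd7 KD cultures under all of these except the local background (-0.43), and Ctnnb1 stood at 0.97 there (SE 0.18; limma adjusted p = 0.53), with an unadjusted p under 0.05, where the fit given above had 0.19. In the authors' values the median over all probes was -0.17, and relative to it the members' median was 0.15.

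**Figure D5:**
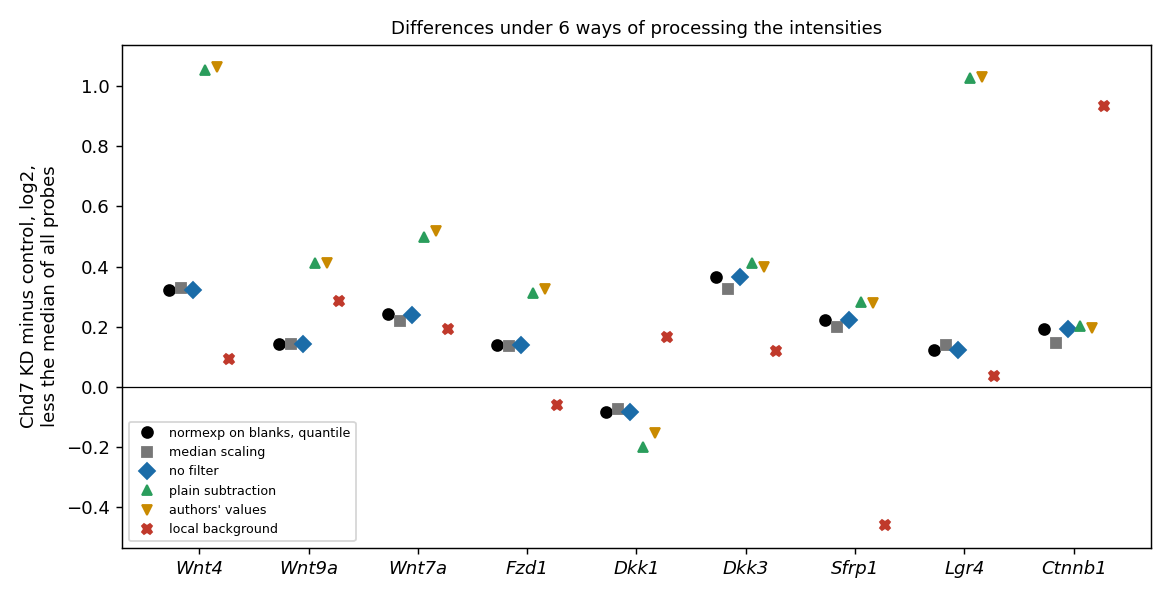
Difference in log2 intensity, Chd7 KD minus control, less the median of all probes, for 9 members under 6 ways of processing the intensities. Wnt4 and Lgr4 lie near 1 with plain subtraction and in the authors' values, and the local background column moves Fzd1, Dkk1 and Sfrp1 across 0.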

How the data were processed

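Amplified aminoallyl RNA was coupled to Cy5 and hybridised to 1-colour arrays (per the labels' protocols). Per the file headers, the scanner output that the authors deposited gives a median intensity and a local background intensity for every spot, for 23474 probe spots, 2736 empty spots and 1246 other controls. In the authors' deposited table, linear intensities have a median of 25 in each column; the sources used here do not say how they were scaled.

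Intensities were corrected by normexp on the empty spots (limma 3.58.1 nec, offset 50; R 4.3.3), log2 transformed and quantile normalised, and spots marked by the scanner (0 to 9 per array) were left out. Probes brighter than the empty spots' mean plus 2 SD on at least 3 arrays were kept (20747). Chd7 KD and control arrays were compared with limma (lmFit, eBayes, two-sided, Benjamini-Hochberg over all kept probes). The fit was also run on simulated data with independent noise on every array. Such data lack the correlation of same-numbered arrays described below, so that run says nothing of its effect, and its outcome is not given. An exact permutation test of 3 against 3 arrays cannot go below p = 0.1, so none is given. The number of arrays limits the precision.

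Names came from the platform annotation; all 53 member probes matched RefSeq by Entrez identifier and 0 symbols changed. Wnt11 and Tcf7, which the rule also covers, are not analysed here. No build is named for the arrays.

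Replicate numbers are shared by the groups. Deviations from group means over all probes gave r = 0.498, 0.425 and 0.436 for arrays of 1 number. A fit with the number as a block was therefore run beside the main fit, which did not use the numbers. Standard errors, intervals and p-values are from the fit without the block unless another setting is named. With the block, the SE of Dkk3 went from 0.22 to 0.06 and that of Fzd3 from 0.08 to 0.10. Arrays were not grouped by slide or scan, which the file headers do not give.

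Members and lists were chosen with earlier results of these data known. Per-array values are given for members with an unadjusted p under 0.05, for the 2 of smallest p in each role, for Ctnnb1, Axin2 and Lef1, and for each probe of a gene with several; members that differ by 0.2 or more and up to 2 genes per further list are also named.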

Additional observations from a re-analysis of the deposited data

How the results depend on the processing

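Under every alternative run, 0 Wnt members had an adjusted p under 0.05, the replicate block included. Wnt4 had an unadjusted p under 0.05 under every alternative run except the local background, and its limma adjusted p ranged from 0.125 to 0.992 over these alternatives. The count higher at an unadjusted p under 0.05, 1 in the fit reported, was 2 with plain subtraction, the local background and no filter, 6 with the replicate block, and 1 to 5 with 1 array left out. It was 2 without Chd7 KD replicate 1, 5 without Chd7 KD replicate 2 and 4 without Chd7 KD replicate 3. The count lower was 0, but 1 in the authors' values (Dkk1), and 0 to 1 with 1 array left out: it was 1 without Chd7 KD replicate 3 (Dkk1) and 1 without control replicate 1 (Rspo2). The median of the members was 0.11 with plain subtraction, 0.082 with the local background and -0.016 in the authors' values (all probes: -0.17), and 0.016 to 0.058 with 1 array left out. Other pathway probes at an unadjusted p under 0.05 numbered 2, but 5 in the authors' values, 4 with the local background, 1 with plain subtraction, 4 with the replicate block, and 1 to 6 with 1 array left out, with 6 without control replicate 2 and 6 without control replicate 3, 4 without Chd7 KD replicate 2 and 1 without Chd7 KD replicate 3.

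Over all probes the unadjusted calls split into 571 higher and 588 lower, but 785 and 513 with the local background, 174 and 1901 in the authors' values and 237 and 380 with median scaling. Signs of 22 of the 51 members changed with the local background and of 13 in the authors' values. Separately, 28 probes of members, other pathway genes and Chd7 were followed by name, and 11 of them changed sign with the local background. They were Fzd1 (-0.029), Fzd10 (-0.034), Ror1 M200014996 (-0.043), Dkk1 (0.20), Sfrp1 (-0.43), Csnk1d (-0.28), Gsk3b (0.30), Rhou (-0.20), Invs (0.0090), Myc (0.33) and Chd7 M400002483 (0.044). Fzd6, a member outside these 28, differed by -0.02 in the main fit. With the local background it was higher in Chd7 KD cultures at an unadjusted limma p under 0.05. Ror1 M200014996 was at -0.11 in the authors' values. With 1 array left out, Ror1 M200014996 ranged from -0.0078 to 0.088, Ror1 M400013711 from -0.078 to 0.054 and Axin2 from -0.0053 to 0.036. The cause of these moves was not tested. A slide or scan block was not run, since the file headers give none. Signal over background limits the dim probes most.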
